A study of Caenorhabditis elegans with 54 samples.

Results

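The genes msrp-2 (ZK484.5), msrp-3 (F46F5.6), msrp-4 (F46F5.9) and msrp-6 (D2062.6) of Caenorhabditis elegans were described across all strains and both assays of a study of small RNA feedback. These 4 of the 7 msrp genes in the files were chosen by symbol because they were among the genes that gained most small RNA reads in strains lacking mut-16, out of 46003 gene names counted. Small RNA reads on mut-16 strains against their counterparts were therefore used to choose them, and those values are given as a description, with no test. Each of the 4 is annotated as protein coding, and the name tables used here give no function for the family.

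Small RNAs of the 22G class are short antisense RNAs that RNA-dependent RNA polymerases copy from a target mRNA and that load into worm-specific Argonaute proteins. Many 22G-RNAs that silence genes need the mutator complex, which the scaffold protein MUT-16 assembles in foci beside germline nuclei. Upstream of it act primary Argonautes, among them PRG-1, which binds piRNAs, and ERGO-1, which binds 26G-RNAs against duplicated and short-lived genes, while HRDE-1 is a nuclear germline Argonaute that carries 22G-RNAs to chromatin. The sperm Argonautes ALG-3 and ALG-4 bind another class of 26G-RNAs against genes expressed during spermatogenesis, and CSR-1 carries 22G-RNAs made independently of the mutator complex.

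In the main experiment both small RNA and mRNA were sequenced from 8 strains with 3 libraries each. Of these, 3 carried the mutation mut-16(pk710) together with deletions at sosi-1, at eri-6[e-f] or at both. A pair of strains lacked 2 Argonautes each, prg-1(n4357); ergo-1(tm1860) and prg-1(n4357); hrde-1(tm1200). The remaining 3 had functional mut-16 and carried a deletion of sosi-1 (cmp262), of eri-6[e-f] (cmp261), or of both (cmp263, here called the double deletion, and with mut-16 mutant the mut-16 double deletion), so that no strain in this experiment was free of mutations. Every mut-16 strain shares the deletions of the strain it is set against. The labels name 1 strain per genotype. All were whole day 1 adults grown at 20 °C and collected after 64 h, with 8000 animals per sample. In a further experiment, small RNA of the single mutants ergo-1(tm1860) and prg-1(n4357) was sequenced, again with 3 libraries each, under labels that name both 20 °C for 68 h and 25 °C for 48 h without saying which applied. Wild type animals and a mut-16 mutant without other deletions were not analysed here.

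Total counts lay between 13217989 and 93976553 per mRNA library, between 8002988 and 42010626 per small RNA library of the main experiment and between 10939270 and 14728372 in the other. By total count alone, a level resting on 3 counts is thus 0.0319 to 0.227 CPM in mRNA, CPM being counts scaled to library size. In small RNA of the main experiment it is 0.0714 to 0.375 CPM. The levels given below use library totals adjusted by the scaling factors of the fits (TMM), so these limits hold only roughly for them. In eri-6[e-f] mRNA replicate 2, 3 counts are 0.207 CPM by total count, while the 6 counts of msrp-3 are given as 0.6 CPM. As a check of the labels, sosi-1 mRNA had no count in any library of the 4 strains with a sosi-1 deletion and averaged 13.7 CPM in prg-1; hrde-1 and 11.5 CPM in eri-6[e-f] mut-16. It was also low, at 0.239 and 0.124 CPM, in prg-1; ergo-1 and eri-6[e-f]. The mRNA of ergo-1 averaged 3.45 CPM in prg-1; ergo-1, against 56.5 to 314 CPM in the other strains. Transcripts of prg-1, hrde-1 and mut-16 remained present in their mutants, which checks nothing where the mutation leaves the counted part of the transcript in place. One prg-1; hrde-1 small RNA library, replicate 1, stood apart from its replicates. The label of prg-1; ergo-1 small RNA replicate 3 names selection of mRNA, unlike those of its replicates. The library was kept as small RNA, and no call on the 4 genes changed without it. Nothing says that the 3 libraries of a strain came from separate cultures, so p-values measure the spread between these libraries.

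Small RNA reads on msrp-4, the member with the highest mean gain, were high wherever mut-16 was mutant. The mut-16 double deletion libraries had 30.1, 30.2 and 33 CPM, against 0.285, 0.365 and 0.225 CPM in the double deletion. Libraries of sosi-1 mut-16 had 19.5, 19.8 and 19.3 CPM, against 0.458, 0.302 and 0.497 CPM in sosi-1. In eri-6[e-f] mut-16 there were 15.7, 10.5 and 12.7 CPM, against 0.0495, 0.249 and 0.0802 CPM in eri-6[e-f], which rest on 1, 5 and 1 counts. Every mut-16 library was higher than every library of the 3 deletion strains. The Argonaute double mutants were high as well, with 19.5, 16.8 and 14.5 CPM in prg-1; ergo-1 and 56.6, 49.3 and 42.4 CPM in prg-1; hrde-1.

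For msrp-3, small RNA levels of 29, 30.1 and 34.5 CPM were found in the mut-16 double deletion, against 0.0949, 0.208 and 0.449 CPM in the double deletion. The corresponding values were 22.2, 22 and 20.6 CPM in sosi-1 mut-16, against 0.499, 0.528 and 0.497 CPM in sosi-1. They were 14.2, 9.73 and 13.8 CPM in eri-6[e-f] mut-16, against 0.198, 0.449 and 0 CPM in eri-6[e-f]. Again no mut-16 library overlapped a library of a deletion strain, and the deletion strains were all below 1 CPM. The prg-1; ergo-1 libraries had 21.1, 15.8 and 18.3 CPM and the prg-1; hrde-1 libraries 64.3, 49.9 and 43.7 CPM, the highest of any strain.

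Reads on msrp-6 followed the same order at higher values. There were 70.3, 77.5 and 84.5 CPM in the mut-16 double deletion, against 1.14, 0.677 and 0.618 CPM in the double deletion. In sosi-1 mut-16, 60.9, 71.7 and 58.9 CPM were counted, against 2.62, 1.96 and 2.4 CPM in sosi-1. Levels of 38.8, 34.1 and 40.5 CPM were counted in eri-6[e-f] mut-16, against 0.742, 0.549 and 0.481 CPM in eri-6[e-f]. The groups did not overlap, and among the deletion strains the sosi-1 libraries were the highest. The Argonaute double mutants had 57.5, 59.6 and 48 CPM in prg-1; ergo-1 and 138, 164 and 102 CPM in prg-1; hrde-1.

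The gene msrp-2 kept more small RNA in the deletion strains than the other members relative to its own maximum. Its levels were 56.9, 60.6 and 68.4 CPM in the mut-16 double deletion, against 0.949, 1.35 and 1.29 CPM in the double deletion. They were 44, 41.5 and 34.1 CPM in sosi-1 mut-16, against 4.45, 4.08 and 5.01 CPM in sosi-1. They were 25.8, 13.2 and 27.8 CPM in eri-6[e-f] mut-16, against 1.53, 1.65 and 0.963 CPM in eri-6[e-f]. The lowest mut-16 library, at 13.2 CPM, was still above the highest library of a deletion strain, at 5.01 CPM. Double mutants had 35.6, 34.2 and 32.1 CPM in prg-1; ergo-1 and 93.7, 70.7 and 59.4 CPM in prg-1; hrde-1.

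**Figure D1:**
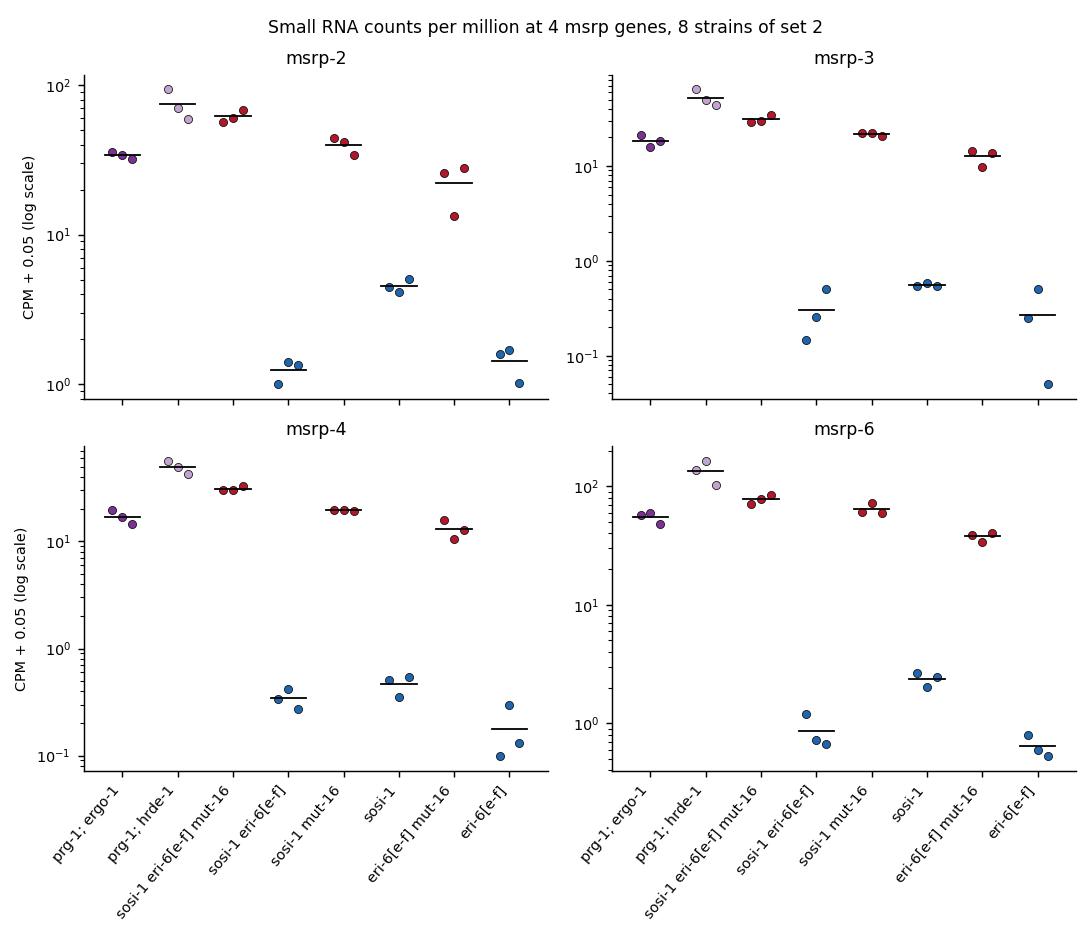
Small RNA level of msrp-2, msrp-3, msrp-4 and msrp-6 in CPM plus 0.05, on a log axis, in the 24 small RNA libraries of the main experiment. Points are libraries and black lines the mean of 3. The 5 mut-16 and Argonaute double mutant strains sit above the 3 deletion strains for each gene, with no overlap.

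By strain means, the order of small RNA levels was prg-1; hrde-1, then the mut-16 double deletion, sosi-1 mut-16, prg-1; ergo-1, eri-6[e-f] mut-16 and sosi-1, for all 4 genes, with eri-6[e-f] and the double deletion last in an order that differed between genes. Neighbours in that order often overlapped. The libraries of sosi-1 mut-16 and prg-1; ergo-1 overlapped for all 4 genes, as did those of eri-6[e-f] and the double deletion. Overlap was also seen between the top 2 strains for msrp-2, between both sosi-1 strains with mut-16 mutant for msrp-6, and for msrp-4 between prg-1; ergo-1 and eri-6[e-f] mut-16 and between sosi-1 and the double deletion.

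As fitted values averaged over the 3 backgrounds, the small RNA difference of mut-16 strains from their counterparts was 6.24 ± 0.14 (log2 fold change ± SE) for msrp-4, 6 ± 0.17 for msrp-3, 5.74 ± 0.12 for msrp-6 and 4.25 ± 0.15 for msrp-2, or 75.3-, 64.2-, 53.6- and 19-fold. The mean for msrp-4 was 6.59 when eri-6[e-f] replicate 2 was left out. The threshold used throughout was an adjusted p under 0.05 and at least a 2-fold difference. By it 13.3% of the 15380 tested genes were higher in this comparison. In the double deletion, sosi-1 and eri-6[e-f] backgrounds taken singly, 12.3%, 13.9% and 14.4% were. The 4 members are not set against these shares, because this difference chose them. Their median was 5.87, against -0.33 for all genes tested. Ranked by this difference among 6935 genes with a mean of at least 10 CPM, msrp-4, msrp-3 and msrp-6 were at places 2, 3 and 4, behind F02D10.11 at 6.61, and msrp-2 was at place 10. Next to msrp-2 in that ranking stood C33F10.1 at 4.48 and C39D10.14 at 4.19, and the sperm-specific family gene ssp-31 was at 4.52.

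The size of the small RNA difference was not equal in the 3 backgrounds. For msrp-2 it was 5.7 ± 0.27 in the double deletion, 3.13 ± 0.22 in sosi-1 and 3.93 ± 0.27 in eri-6[e-f]. For msrp-6 it was 6.54 ± 0.21, 4.74 ± 0.18 and 5.95 ± 0.23 in the same order. The largest and smallest of the 3 values were 2.57 apart for msrp-2, 1.8 for msrp-6, 1.58 for msrp-3 and 1.24 for msrp-4, given without a test because the same values chose the genes. For msrp-3 the difference was 5.63 in eri-6[e-f] and 6.61 without eri-6[e-f] replicate 2, and it was 6.98 in the double deletion and 7.64 without its replicate 3. For msrp-4 it was 6.54 in eri-6[e-f] and 7.59 without eri-6[e-f] replicate 2. In all 4 genes the background with the smallest difference was sosi-1, the deletion strain with the highest mean level.

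The mRNA of all 4 genes was higher in mut-16 strains too. In msrp-2 the mut-16 double deletion libraries had 26.1, 23.9 and 28.2 CPM, against 5.72, 6.8 and 7.08 CPM in the double deletion. Those of sosi-1 mut-16 had 38.7, 34.1 and 34.6 CPM, against 11.5, 12.2 and 7.82 CPM in sosi-1. Those of eri-6[e-f] mut-16 had 19.1, 16.3 and 27.4 CPM, against 5.49, 3.3 and 2.5 CPM in eri-6[e-f]. No mut-16 library overlapped a deletion strain. The msrp-2 mRNA difference over 3 backgrounds was 2.07 ± 0.14 (log2 fold change ± SE, edgeR adjusted p = 9.71e-12), higher in 9 of 9 mut-16 libraries.

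Transcripts of msrp-3 were at 3.34, 3.24 and 3.94 CPM in the mut-16 double deletion, against 0.524, 0.394 and 0.484 CPM in the double deletion. They were at 4.2, 3.52 and 4.88 CPM in sosi-1 mut-16, against 1.06, 0.852 and 0.88 CPM in sosi-1. They were at 2.35, 3.94 and 3.85 CPM in eri-6[e-f] mut-16, against 0, 0.6 and 0 CPM in eri-6[e-f], where the counts were 0, 6 and 0. The mut-16 libraries were again all above the others. The mean difference was 3.13 ± 0.24 (adjusted p = 6.81e-11), and the value of 4.35 ± 0.54 in the eri-6[e-f] background rests on those few counts. Without eri-6[e-f] replicate 2 both remaining libraries of that strain were at 0 counts, and the fitted values of 4.97 for the mean and 9.69 for that background are no bound, while without its replicate 1 the value for that background was 3.62. In edgeR's joint test that the mRNA difference is equal in all backgrounds, msrp-3 had a span of 2.19 between its largest and smallest value and adjusted p = 0.0303, where 60.1% of all genes passed. It lost significance without eri-6[e-f] replicate 1 (0.129), eri-6[e-f] replicate 3 (0.0896), eri-6[e-f] mut-16 replicate 3 (0.0677), sosi-1 replicate 1 (0.0621) or sosi-1 mut-16 replicate 2 (0.0527).

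For msrp-4, mRNA was 2.19, 1.94 and 2.04 CPM in the mut-16 double deletion, against 0.0874, 0.139 and 0.182 CPM in the double deletion. It was 2.74, 1.6 and 1.8 CPM in sosi-1 mut-16, against 0.033, 0.271 and 0.0977 CPM in sosi-1. It was 1.5, 1.79 and 1.8 CPM in eri-6[e-f] mut-16, against 0.457, 0.1 and 0.161 CPM in eri-6[e-f]. Its transcript was close to the limit of counting in every deletion strain and above 1 CPM in every mut-16 library. The mean difference was 3.55 ± 0.24 (adjusted p = 7.4e-12). In single backgrounds it was 2.68 in eri-6[e-f], or 3.63 without eri-6[e-f] replicate 1, and 3.91 in sosi-1, or 5.01 without sosi-1 replicate 2.

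Levels of msrp-6 mRNA were 4.34, 4.52 and 5.3 CPM in the mut-16 double deletion, against 0.874, 1.16 and 1.51 CPM in the double deletion. They came to 8.27, 5.46 and 7.39 CPM in sosi-1 mut-16, against 1.95, 2.09 and 1.71 CPM in sosi-1. They came to 3.64, 5.73 and 6.93 CPM in eri-6[e-f] mut-16, against 1.5, 0.6 and 0.242 CPM in eri-6[e-f]. There was no overlap between the groups. The mean difference was 2.21 ± 0.19 (adjusted p = 3.54e-10), and that in eri-6[e-f] was 2.71, or 3.73 without eri-6[e-f] replicate 1. In edgeR's joint test of equal mRNA differences, adjusted p was 0.199 for msrp-2, 0.175 for msrp-4 and 0.265 for msrp-6. The test was passed without eri-6[e-f] replicate 1 by msrp-2 (0.0289) and msrp-6 (0.0107), and without sosi-1 replicate 2 by msrp-4 (0.0449).

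Thus 4 of 4 members rose in mRNA in the mean over backgrounds, where 13.2% of 15376 genes tested rose, with a median of 2.67 against 0.06 for all genes. Each of the 4 also rose in each background, where the share of all genes that rose was 28.1% in the double deletion, 10.4% in sosi-1 and 16.2% in eri-6[e-f]. All 4 passed the filter on low counts in both assays. The filter could be passed through the strains with high levels alone. Of all called genes in the mean comparison, 2025 were higher and 722 lower, a split that became 3025 and 376 when libraries were scaled by total count only and the median of all genes moved to 0.32. The share of higher calls in the single backgrounds moved likewise to 79.6% with total counts and 55.9% otherwise in the double deletion, and to 74% and 63.1% in eri-6[e-f]. The mRNA and small RNA comparisons use separate libraries of the same strains.

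**Figure D2:**
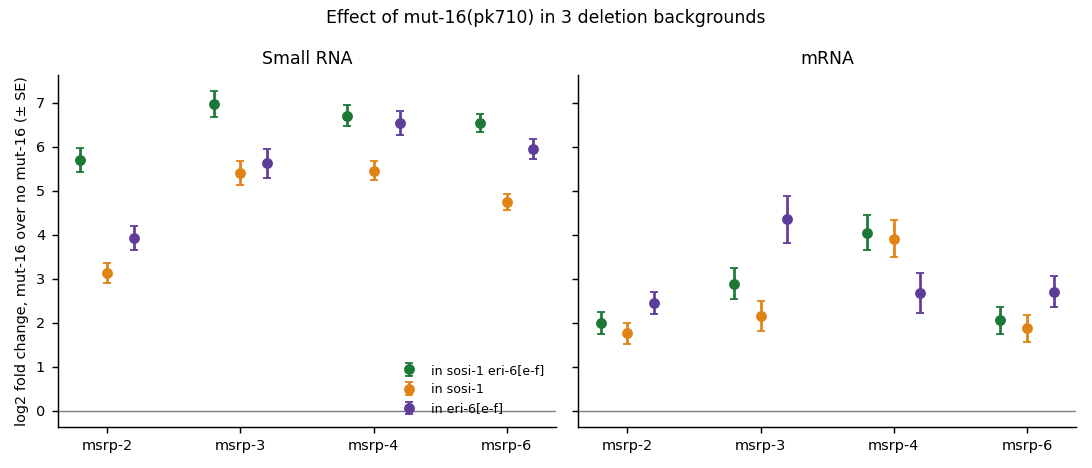
Log2 fold change of each mut-16 strain over the strain with the same deletions, for small RNA and mRNA of the 4 genes in each of 3 backgrounds. Points are fitted values and bars their SE. The small RNA values, between 3.13 and 6.98, were used to choose the genes and are a description, and the mRNA values lie between 1.76 and 4.35.

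Animals lacking the Argonaute pairs had the most msrp mRNA. For msrp-2 there were 47.8, 58.2 and 45.6 CPM in prg-1; ergo-1, against 128, 151 and 197 CPM in prg-1; hrde-1. For msrp-3 there were 5.52, 6.7 and 6.09 CPM in prg-1; ergo-1, against 14.4, 12.9 and 22.5 CPM in prg-1; hrde-1. In both genes every prg-1; hrde-1 library was above every prg-1; ergo-1 library, and these in turn were above every library of the other strains. For msrp-4 there were 3.67, 4.24 and 2.76 CPM in prg-1; ergo-1, against 12.6, 12.2 and 17.6 CPM in prg-1; hrde-1. For msrp-6 there were 12.2, 16.2 and 11.7 CPM in prg-1; ergo-1, against 24.8, 26.3 and 31.5 CPM in prg-1; hrde-1. The same order without overlap held for these 2 genes. Here and in the other comparisons, the share of all genes without overlap was not counted, so a lack of overlap is only a description.

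Set against each other, prg-1; ergo-1 was lower than prg-1; hrde-1 in both assays, a comparison that shares no library with the one that chose the genes. In mRNA the log2 fold changes were -1.65 ± 0.24 for msrp-2 (edgeR adjusted p = 6.05e-06), -1.44 ± 0.29 for msrp-3 (0.000269), -1.99 ± 0.26 for msrp-4 (2.13e-06) and -1.04 ± 0.27 for msrp-6 (0.0022). All 4 fell, where 24.4% of genes fell and 16% of all calls were higher, or 4.57% with scaling by total count alone. The members' median was -1.55, against -0.16 for all genes. The fall of msrp-6 mRNA dropped under 2-fold without prg-1; ergo-1 replicate 1 (-0.98) or 3 (-0.95) or prg-1; hrde-1 replicate 3 (-0.93). In small RNA the values were -1.14 ± 0.19 for msrp-2 (2.98e-05), -1.5 ± 0.18 for msrp-3 (4.24e-07), -1.55 ± 0.14 for msrp-4 (4.86e-09) and -1.31 ± 0.13 for msrp-6 (2.6e-08), again 4 falls where 16.9% of genes fell, with a median of -1.4 against -0.03. Without prg-1; hrde-1 small RNA replicate 1, the library that stood apart, msrp-2 was at -0.96 and under 2-fold.

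Relative to the mean of the 3 deletion strains, the mRNA of msrp-2, msrp-3, msrp-4 and msrp-6 was higher by 2.98 ± 0.18, 3.86 ± 0.28, 4.44 ± 0.27 and 3.45 ± 0.22 (log2 fold change ± SE) in prg-1; ergo-1, where 14% of genes rose. It was higher by 4.63 ± 0.18, 5.31 ± 0.26, 6.43 ± 0.25 and 4.5 ± 0.22 in prg-1; hrde-1, where 25.5% of genes rose. All 8 of these mRNA values passed edgeR's test. Without eri-6[e-f] replicate 2, which left msrp-3 at 0 counts in that strain, its fitted values were 5.74 in prg-1; ergo-1 and 7.15 in prg-1; hrde-1. Higher calls made up 57% of all mRNA calls in prg-1; ergo-1 and 65.3% in prg-1; hrde-1, and with scaling by total count alone 75.9% and 91.6%, while in small RNA they made up 36.6% and 46.6%, and 26.1% and 33.4% with total counts. In small RNA the same comparisons gave 4.09 ± 0.18, 5.88 ± 0.2, 6.01 ± 0.16 and 5.68 ± 0.14 in prg-1; ergo-1, beside 16.3% of genes called higher, and 5.24 ± 0.17, 7.38 ± 0.19, 7.56 ± 0.15 and 6.99 ± 0.13 in prg-1; hrde-1, beside 24.3%. These small RNA values share the 9 deletion strain libraries with the comparison that chose the genes and are not a separate line of evidence.

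**Figure D3:**
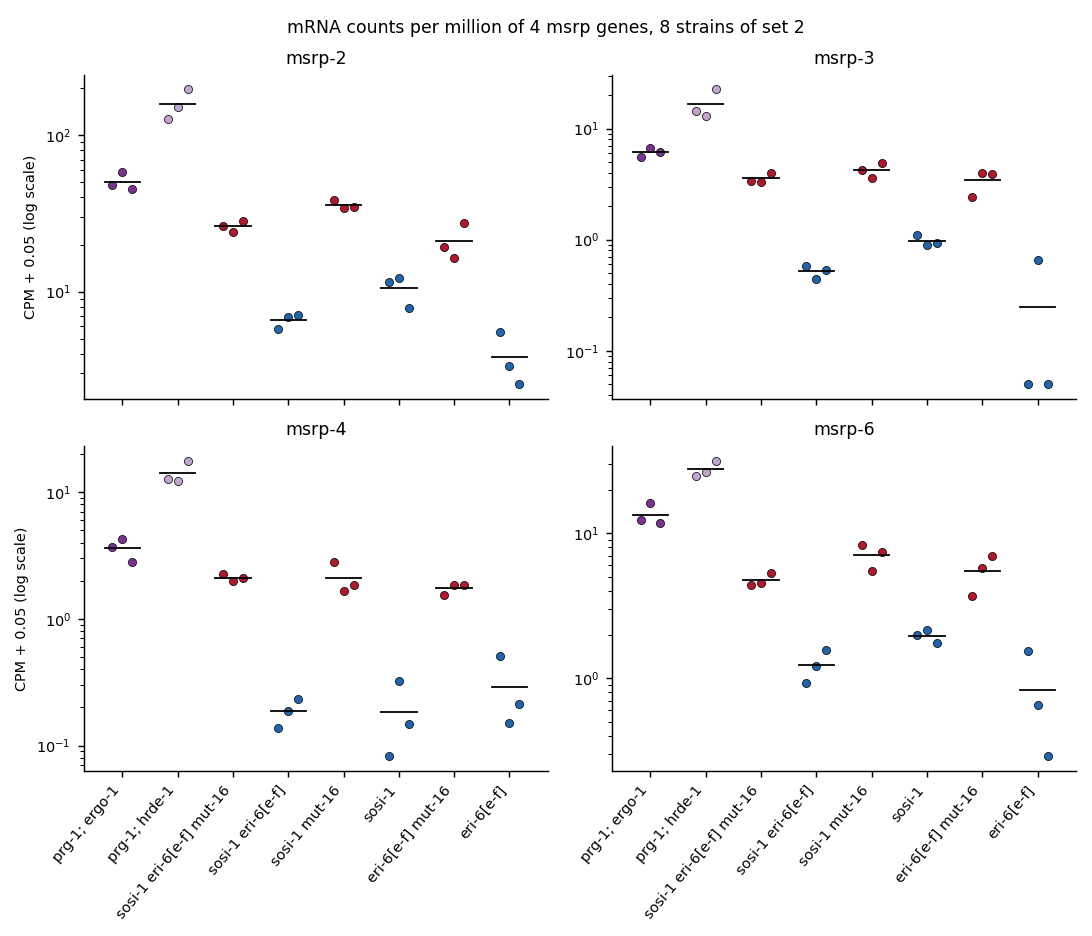
The mRNA level of the 4 genes in CPM plus 0.05, on a log axis, in the 24 mRNA libraries. Points are libraries and black lines the mean of 3. The prg-1; hrde-1 libraries are the highest for each gene, the prg-1; ergo-1 libraries next, then the 3 mut-16 strains, and the 3 deletion strains are the lowest.

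The 3 deletion strains differed from each other. Their small RNA libraries were also the reference in the comparison that chose the genes. Small RNA calls among the 3 strains are therefore not a separate line of evidence. In sosi-1 against eri-6[e-f], small RNA rose by 1.67 ± 0.31 for msrp-2 (log2 fold change ± SE, edgeR adjusted p = 0.000541), 1.96 ± 0.32 for msrp-6 (0.000147) and 1.68 ± 0.49 for msrp-4 (0.019), where 6.87% of genes rose. The value for msrp-3 was 1.03 ± 0.54 (0.218). The msrp-4 value rests on 27 counts in sosi-1 and 7 in eri-6[e-f] over 3 libraries each, and the gene passed the filter on low counts through other strains. It was 2.72 without eri-6[e-f] replicate 2, and its call was lost without eri-6[e-f] replicate 1 (0.163), eri-6[e-f] replicate 3 (0.0589) or sosi-1 replicate 3 (0.0667). In mRNA of the same strains msrp-2 rose by 1.47 ± 0.26 (8.81e-05), msrp-3 by 2.5 ± 0.62 (0.00179) and msrp-6 by 1.21 ± 0.38 (0.0102), where 20.2% of genes rose, and msrp-4 was at -0.97 ± 0.66 (0.217). The msrp-3 mRNA value rests on 0, 6 and 0 counts in eri-6[e-f]: it was 1.77 without eri-6[e-f] replicate 1, and 7.88, with no count left in that strain, without replicate 2. The msrp-6 mRNA value was 2.24 without eri-6[e-f] replicate 1, and its call was lost without eri-6[e-f] replicate 3, at 0.79. The msrp-4 mRNA value was -0.02 without eri-6[e-f] replicate 1 and was called lower, at -2.06, without sosi-1 replicate 2. Higher calls were 60.3% of all mRNA calls, and 85.5% with scaling by total count alone.

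With both deletions present, small RNA in the double deletion was lower than in sosi-1 by -1.93 ± 0.32 for msrp-2 (log2 fold change, adjusted p = 0.000107) and -1.52 ± 0.3 for msrp-6 (0.000575), where 8.99% of genes fell, while msrp-3 was at -1.05 (0.149) and msrp-4 at -0.57 (0.329). Small RNA in the double deletion against eri-6[e-f] was called for 0 of 4 genes by edgeR and by DESeq2, with 0 at an unadjusted p under 0.05, where 0.312% of genes rose and 0.897% fell. The mRNA of these strains was called for 0 by edgeR and 1 by DESeq2, with 2 at an unadjusted p under 0.05, where 8.73% of genes rose and 10.4% fell. Without eri-6[e-f] replicate 1, msrp-2 and msrp-6 were called higher there at 1.18 and 1.47, against 0.77 and 0.45 with it. Without replicate 2, which left no msrp-3 count in eri-6[e-f], msrp-3 was called at a fitted 6.88. In the double deletion against sosi-1, edgeR and DESeq2 called 0 in mRNA, with 3 lower at an unadjusted p under 0.05, where 17% of genes rose and 24.7% fell.

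Among the mut-16 strains, small RNA in the mut-16 double deletion was above eri-6[e-f] mut-16 by 1.5 ± 0.19 for msrp-2 (7.65e-06), 1.33 ± 0.18 for msrp-3 (1.8e-05), 1.28 ± 0.14 for msrp-4 (1.31e-06) and 1.04 ± 0.13 for msrp-6 (6.71e-06), 4 rises where 6.5% of genes rose. Small RNA libraries of the mut-16 strains also took part in choosing the genes. Small RNA calls among these strains are therefore not a separate line of evidence. The msrp-6 rise was under 2-fold, at 0.9, by DESeq2 and with its size factors in edgeR, and also without eri-6[e-f] mut-16 replicate 2 (0.98) or mut-16 double deletion replicate 3 (0.99). In the mut-16 double deletion against sosi-1 mut-16, small RNA values were 0.64, 0.53, 0.67 and 0.28 in the same order, with 0 of 4 called by edgeR or DESeq2 because each was under 2-fold, and 4 of 4 at an unadjusted p under 0.05, where 0.65% of genes rose and 0.273% fell. The same counts held for sosi-1 mut-16 against eri-6[e-f] mut-16, at 0.86, 0.8, 0.6 and 0.76, where 7.39% of genes rose and 0.182% fell. Without eri-6[e-f] mut-16 replicate 3 of the assay, msrp-2 was called higher in this pair at 1.08 in small RNA and 1.05 in mRNA. In mRNA, neither tool called a member in the 3 comparisons among mut-16 strains, and 1 was at an unadjusted p under 0.05 in each of the comparisons with sosi-1 mut-16 and 0 in the other. Of all mRNAs, 8.68% rose and 12% fell in the mut-16 double deletion against sosi-1 mut-16, 6.11% rose and 5.86% fell in it against eri-6[e-f] mut-16, and 8.32% rose and 1.12% fell in sosi-1 mut-16 against eri-6[e-f] mut-16.

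In the separate experiment on single mutants, ergo-1 had little msrp small RNA and prg-1 had much. For msrp-2 the ergo-1 libraries had 3.34, 2.19 and 1.52 CPM, against 20.4, 18.6 and 28.2 CPM in prg-1. For msrp-3 they had 0.435, 0.274 and 0.122 CPM, against 13.8, 12.5 and 15.8 CPM in prg-1. For msrp-4 they had 0.145, 0.137 and 0.183 CPM, resting on 2, 2 and 3 counts, against 16.1, 13.7 and 14.7 CPM in prg-1. No library of one strain overlapped the other. For msrp-6 the ergo-1 libraries had 1.6, 0.548 and 0.914 CPM, against 53.5, 38.8 and 55.6 CPM in prg-1. The log2 fold changes of ergo-1 over prg-1 were -3.27 ± 0.24 for msrp-2 (edgeR adjusted p = 6.35e-08), -5.66 ± 0.28 for msrp-3 (1.07e-09), -6.48 ± 0.25 for msrp-4 (8.93e-11) and -5.6 ± 0.24 for msrp-6 (1.99e-10). All 4 fell, where 15.6% of the 11746 genes tested fell, with a median of -5.63 against 0.04 for all genes. With so few counts in ergo-1, msrp-3, msrp-4 and msrp-6 passed the filter on low counts only through prg-1. This favours a fall, so the calls of these genes are only a description. The libraries of this experiment took no part in choosing the genes. With no wild type analysed here, the comparison does not say which of these strains departed from it.

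**Figure D4:**
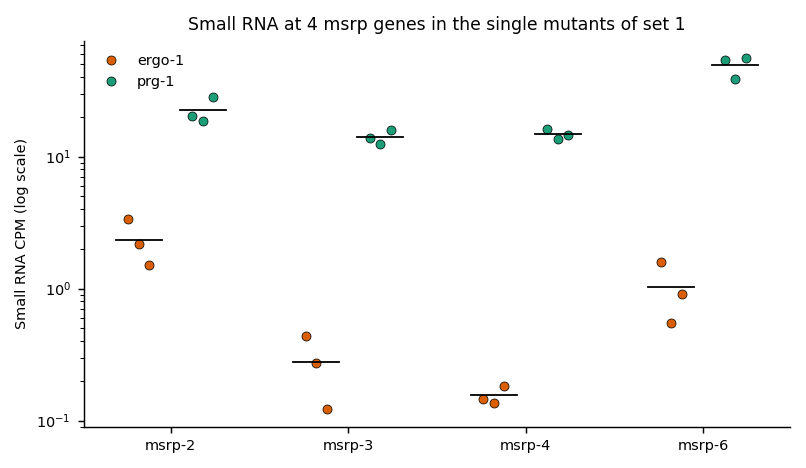
Small RNA level of the 4 genes in ergo-1 and prg-1 single mutants, in CPM on a log axis. Points are libraries and black lines the mean of 3. The ergo-1 libraries lie below the prg-1 libraries for each gene, without overlap.

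Across the experiments, which may also differ in growth temperature, msrp small RNA in prg-1; ergo-1 was set against that in prg-1. The log2 fold changes were 0.18 ± 0.22 for msrp-2 (edgeR adjusted p = 0.553), -0.01 ± 0.18 for msrp-3 (0.981), -0.22 ± 0.14 for msrp-4 (0.246) and -0.26 ± 0.19 for msrp-6 (0.306). None was called by edgeR or DESeq2 and none had an unadjusted p under 0.05, where edgeR called 7.85% of 12964 genes higher and 4.66% lower. The value for prg-1; hrde-1 over prg-1 was 1.38 ± 0.22 for msrp-2 (0.000125), 1.54 ± 0.18 for msrp-3 (1.08e-05), 1.38 ± 0.14 for msrp-4 (2.65e-06) and 1.08 ± 0.19 for msrp-6 (0.00028), where 24% of genes rose. The msrp-6 value was under 2-fold without prg-1 replicate 2 (0.92) or prg-1; hrde-1 replicate 2 (0.96). Over ergo-1, prg-1; ergo-1 was higher by 3.5 ± 0.27, 5.71 ± 0.31, 6.33 ± 0.26 and 5.39 ± 0.28, where 17.5% of genes rose. With few counts in ergo-1, msrp-3, msrp-4 and msrp-6 passed the filter through other strains, which favours a rise. In these 3 comparisons strain and experiment cannot be told apart.

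The other 3 msrp genes were mixed, and the gain was not particular to the members. Without the minimum mean level used above, all 15380 genes tested were ranked by the mean small RNA difference with mut-16 mutant. The members msrp-4, msrp-3, msrp-6 and msrp-2 were at places 3, 5, 7 and 37. Outside the members, msrp-1 was at place 9, ahead of msrp-2, and msrp-5 at place 46. By the mRNA difference, msrp-1 was at place 98 of 15376 and msrp-2 at place 752. Small RNA of msrp-1 averaged 11.3 ± 1.08 CPM in the mut-16 double deletion and 0.137 ± 0.0225 CPM in the double deletion (SD, n = 3 each), a gain of the same kind, and that of msrp-5 averaged 7.8 ± 1.06 CPM and 0.21 ± 0.0695 CPM in these strains. Their mRNA rose over the 3 backgrounds by 3.45 ± 0.17 (log2 fold change ± SE, edgeR adjusted p = 6.05e-15) for msrp-1 and 1.91 ± 0.2 (1.5e-08) for msrp-5. In ergo-1 against prg-1 their small RNA fell by 4.56 ± 0.33 (4.42e-08) and 4.07 ± 0.37 (4.41e-07) on the log2 scale. Here too the filter on low counts could be passed through prg-1 alone. The gene msrp-7 had at most 11 small RNA counts over the 3 libraries of any strain and was not tested for small RNA, and its mRNA difference was 0.25 ± 0.26 (adjusted p = 0.409). In all, 6 of 7 family members rose in mRNA, where 13.2% of genes tested did.

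Annotation places msrp-6 next to msrp-5, and msrp-3 and msrp-4 on the same chromosome with gtnt-29 and F46F5.8 between them. F46F5.5 and gtnt-29 were picked among the neighbours after their values were seen, so these values are only a description. The other neighbours outside the family are not described. The gene on the other side of msrp-3, F46F5.5, had the opposite small RNA pattern in the strains given next. Its small RNA averaged 0.298 ± 0.172 CPM in the mut-16 double deletion and 14.6 ± 0.265 CPM in the double deletion, and 26.4 ± 2.85 CPM in ergo-1 and 1.5 ± 1.15 CPM in prg-1 (SD, n = 3 each). In ergo-1 against prg-1 it rose by 4.14 ± 0.28 on the log2 scale (edgeR adjusted p = 2.62e-08), while msrp-3 fell. The neighbour gtnt-29 stayed between 0.723 and 3.02 CPM in small RNA in all 8 strain means. Counts with decimals, which arise when a read is divided among transcripts, were seen for msrp-6 in 24 of 24 small RNA libraries of the main experiment, for msrp-3 in 23, for msrp-4 in 22 and for msrp-2 in 2. Levels of msrp-3, msrp-4 and msrp-6 are therefore uncertain to the extent that reads were shared with similar copies, and which strand was counted is not given here.

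The 4 genes varied together over the 24 libraries of 8 strains, which share their strain differences and library depths. The small RNA libraries include those that chose the genes, and that choice favours high correlations. Every correlation below that uses small RNA, also with other genes or with mRNA, is therefore only a description. Pearson correlations of log2 CPM between pairs of members were 0.977 to 0.99 in small RNA and 0.83 to 0.981 in mRNA, lowest for msrp-3 with msrp-4. Outside the family, the small RNA pattern most like the members' mean among 11439 genes was that of C33F10.1 at r = 0.987, then F56D6.22 and F35H8.1 at 0.985 and C04F12.16 and ssp-31 at 0.984. In mRNA, the most alike of 12186 genes were nspa-4 at 0.995, msp-33 at 0.994, msp-31 at 0.993 and msd-4 and msp-50 at 0.992. Of these, msp-33, msp-31 and msp-50 encode major sperm proteins, the cytoskeletal proteins of nematode sperm. Over the 8 strain means, log2 small RNA and mRNA of the same gene were correlated at 0.9 for msrp-2, 0.95 for msrp-3, 0.93 for msrp-4 and 0.92 for msrp-6.

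Genes of sperm moved in the same comparisons. Of 33 major sperm protein genes tested in mRNA, 33 rose in mut-16 strains with a median of 2.51, from msp-42 at 1.2 to msp-49 at 3.49. Of 35 spe and fer genes, which are needed for sperm formation or function, 22 rose with a median of 1.31, spe-41 by 3.06. Of 26 genes of small sperm-specific families, 23 rose with a median of 2.28, ssp-19 by 4.16. By edgeR and by DESeq2 0 genes of these 3 lists fell, and 3 were lower at an unadjusted p under 0.05. The list medians stand against 0.06 for all genes, and the members' median of 2.67 is near those of the major sperm protein and small family lists. Fewer cells of a type and less RNA per cell cannot be told apart in these whole animal samples.

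Lists of other classes had smaller medians in the mean over backgrounds, where 13.2% of all genes rose and 4.7% fell, but moved differently in each background. Of 20 oocyte genes 3 rose in the mean, with a median of 0.51, lin-41 by 1.27. In the double deletion background 9 of the 20 rose and 2 fell, in sosi-1 0 rose by edgeR or DESeq2 and 5 fell, with 0 higher at an unadjusted p under 0.05, and in eri-6[e-f] 13 rose. Oocyte list mRNA made up 1.75 ± 0.0632% of counts in the mut-16 double deletion and 0.843 ± 0.172% in the double deletion. It made up 0.914 ± 0.273% in sosi-1 mut-16 and 1.61 ± 0.24% in sosi-1. For eri-6[e-f] mut-16 the share was 1.29 ± 0.446%, against 0.541 ± 0.178% in eri-6[e-f] (SD, n = 3 each). The oocyte list thus followed another order of strains than the msrp genes, whose mRNA rose in all 3 backgrounds.

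Both edgeR and DESeq2 called 0 of 19 germline genes in the mean, with a median of -0.22 and with 7 higher and 6 lower at an unadjusted p under 0.05. Of these, 7 rose and 4 fell in the double deletion background, 2 fell in sosi-1 and 4 rose in eri-6[e-f]. Both tools called 0 of 4 genes of the CSR-1 pathway in the mean, with a median of 0.46 and 3 higher at an unadjusted p under 0.05, while 3 rose in the double deletion background. Of 11 mutator genes 1 rose in the mean by edgeR and 0 by DESeq2, rde-11 at 1.01, with a median of 0.19, and 5 rose and 1 fell in the double deletion, 1 fell in sosi-1 and 4 rose in eri-6[e-f]. Among 18 intestine, muscle and neuron genes 3 fell in the mean, including the yolk protein gene vit-2 by -1.2, with 6 lower and 1 higher in the double deletion, 2 lower in sosi-1 and 7 lower in eri-6[e-f]. Of all genes 22.1% fell in the double deletion background, 3.25% in sosi-1 and 9.48% in eri-6[e-f]. Among 8 sperm Argonaute and 26G-RNA genes, 5 rose in the double deletion background and 3 in eri-6[e-f]. In sosi-1 1 of them rose, with 4 lower at an unadjusted p under 0.05. The 2 that rose in the mean were alg-3 by 2.38 ± 0.18 (edgeR adjusted p = 4.01e-11) and alg-4 by 2.17 ± 0.2 (1.75e-09). Small RNA on both also differed by strain: alg-3 averaged 9.29 ± 0.653 CPM in the mut-16 double deletion and 0.851 ± 0.214 CPM in the double deletion, and alg-4 averaged 8.79 ± 1.66 CPM and 0.872 ± 0.11 CPM (SD, n = 3 each).

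The sperm lists together made up 0.136 ± 0.00872% of mRNA counts in the mut-16 double deletion and 0.026 ± 0.0026% in the double deletion. They were 0.177 ± 0.002% in sosi-1 mut-16 and 0.0595 ± 0.00521% in sosi-1. They were 0.102 ± 0.0165% for eri-6[e-f] mut-16, against 0.0216 ± 0.00333% in eri-6[e-f]. The share was 0.286 ± 0.0211% in prg-1; ergo-1 and 0.681 ± 0.0598% in prg-1; hrde-1 (SD, n = 3 each), so the strains with more sperm mRNA were also those with more msrp mRNA. In prg-1; ergo-1 against prg-1; hrde-1 the mRNA of 26 of 35 spe and fer genes, 14 of 33 major sperm protein genes and 18 of 26 small sperm-specific genes fell, where 24.4% of all genes did, and 14 of 20 oocyte genes rose, where 4.66% of all genes did.

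Relative to the 3 sperm lists summed, the 4 genes spanned a narrower range in mRNA than in small RNA. The small RNA side includes the values that chose the genes, so this contrast is only a description. Per 10000 sperm-list counts, the 4 genes together had 282 ± 10.1 mRNA counts in the mut-16 double deletion and 231 ± 43.4 in the double deletion, 313 ± 8.62 in sosi-1 mut-16 and 241 ± 40.8 in sosi-1, and 284 ± 28 for eri-6[e-f] mut-16, against 188 ± 74.1 in eri-6[e-f] (SD, n = 3 each). The double mutants had 277 ± 14.5 in prg-1; ergo-1 and 423 ± 33.8 in prg-1; hrde-1. In small RNA, the same ratio was 2310 ± 160 in the mut-16 double deletion and 46 ± 1.91 in the double deletion, 1770 ± 116 in sosi-1 mut-16 and 122 ± 15.3 in sosi-1, and 1640 ± 199 for eri-6[e-f] mut-16, against 43.3 ± 13.5 in eri-6[e-f]. It was 619 ± 29.9 in prg-1; ergo-1 and 1130 ± 152 in prg-1; hrde-1, and in the other experiment 66.4 ± 23.4 in ergo-1 and 665 ± 72.2 in prg-1.

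The summed small RNA ratio was set largely by the spe and fer genes, which made up 47.2% of sperm-list small RNA counts in the mut-16 double deletion and 92.7% in the double deletion. Their share of all small RNA was 0.0491 ± 0.00105% in the mut-16 double deletion and 0.0522 ± 0.000555% in the double deletion, and 0.0387 ± 0.000601% for eri-6[e-f] mut-16, against 0.0528 ± 0.000392% in eri-6[e-f]. As sums, the other sperm lists gained small RNA beside the msrp genes. Small sperm-specific families held 0.0405 ± 0.00105% in the mut-16 double deletion and 0.00234 ± 5.91e-05% in the double deletion, 0.0343 ± 0.000869% in sosi-1 mut-16 and 0.00657 ± 9e-04% in sosi-1, and 0.0153 ± 0.00261% for eri-6[e-f] mut-16, against 0.00225 ± 0.000132% in eri-6[e-f]. Major sperm protein genes held 0.0144 ± 0.000627% in the mut-16 double deletion and 0.00174 ± 0.000141% in the double deletion (SD, n = 3 each). As fitted values with no test, the median small RNA difference with mut-16 mutant was 3.34 for 27 small family genes, 2.69 for 32 major sperm protein genes and 1.89 for 35 spe and fer genes, against 5.87 for the 4 members chosen for this difference. The median spe and fer gene was thus higher with mut-16 mutant, while the summed share of that list was not. Ratios to this list's sum therefore do not stand for its median gene.

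Set against the small sperm-specific families alone, the 4 genes had 5930 ± 462 small RNA counts per 10000 in the mut-16 double deletion and 1110 ± 57.9 in the double deletion, 5000 ± 269 in sosi-1 mut-16 and 1290 ± 216 in sosi-1, and 6380 ± 241 for eri-6[e-f] mut-16, against 1110 ± 402 in eri-6[e-f]. The ratio was 3510 ± 113 in prg-1; ergo-1 and 3560 ± 367 in prg-1; hrde-1. In mRNA the ratio to this list was 1110 ± 36.1 in the mut-16 double deletion and 1020 ± 106 in the double deletion (SD, n = 3 each), and all 8 strain means lay between 697 and 1320. Against major sperm proteins alone, the small RNA ratio was 16600 ± 1120 in the mut-16 double deletion and 1490 ± 157 in the double deletion. The ratio of msrp to sperm gene small RNA was higher with mut-16 mutant for each of the 3 lists, and its size differed by list. The 4 genes were chosen for their small RNA gain with mut-16 mutant. That choice favours a higher small RNA ratio, which is therefore only a description.

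When libraries were scaled to their sperm-list counts, which moved the median of all genes in the mean mRNA comparison to -1.73, the mRNA differences with mut-16 mutant were 0.28 for msrp-2 and 0.42 for msrp-6, no longer called, and 1.36 for msrp-3 and 1.8 for msrp-4, still called. The small RNA differences on this scale, which the spe and fer genes dominate, were 3.92 for msrp-2, 5.69 for msrp-3, 5.93 for msrp-4 and 5.43 for msrp-6. Scaled in the same way, prg-1; ergo-1 against prg-1; hrde-1 kept 1 of 4 mRNA falls, that of msrp-4 at -1.04, and 2 of 4 small RNA falls, those of msrp-3 at -1.04 and msrp-4 at -1.09. On this scale 1.4% of all mRNA calls with mut-16 mutant were higher, and in prg-1; ergo-1 against prg-1; hrde-1 86.9% of mRNA calls and 63.6% of small RNA calls. The part of sperm content in the mRNA and small RNA differences was not tested beyond these values.

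**Figure D5:**
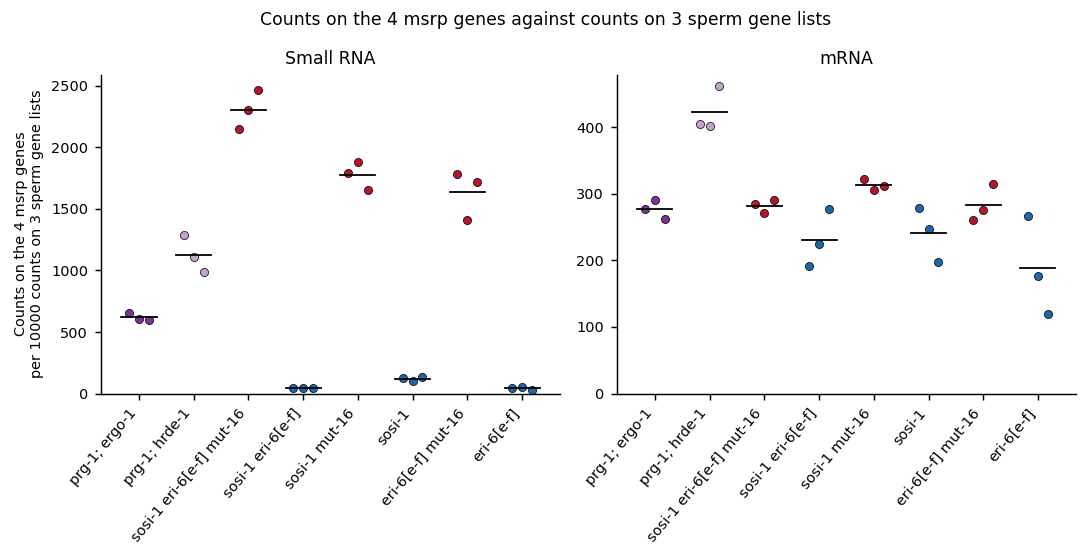
Counts of the 4 genes together per 10000 counts of the 3 sperm gene lists summed, on a linear axis, for small RNA and mRNA by strain. Points are libraries and black lines the mean of 3. The mRNA ratio lies between 120 and 462 in every library, while the small RNA ratio lies between 28.4 and 135 in the 3 deletion strains and between 597 and 2470 in the others. The small RNA values include those used to choose the genes.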

How the data were processed

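Small RNA and mRNA reads of whole animals were counted per gene by the authors. The deposited values are estimated counts with decimals, and the labels' protocols give poly(A) selection with a directional kit for mRNA and gel selection of 18 to 30 nt for small RNA, except that 1 small RNA label, prg-1; ergo-1 replicate 3, names mRNA selection, read as 75 nt single ends. Tools named in the submitters' processing notes are HISAT2, Salmon and cutadapt, without roles, and neither the genome build nor the counted strand is given there.

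Entries sharing a name were summed. Counts were rounded, filtered with edgeR filterByExpr, scaled by TMM and fitted with edgeR 4.0.16 (quasi-likelihood test, R 4.3.3) over all genes of an assay, with 1 coefficient per strain, in 3 fits: small RNA and mRNA of the main experiment, and small RNA of the single mutants. A further fit joined both small RNA sets. P-values were adjusted by the Benjamini-Hochberg method over all genes of a fit, and a gene was called at an adjusted p under 0.05 and at least a 2-fold difference. For the mRNA difference between backgrounds, the span between the largest and smallest log2 fold change had to reach 2-fold. In small RNA this difference, first planned as a test, is described only, since its values chose the members. CPM values of genes are rounded counts scaled to library totals adjusted by the TMM factors, while the levels for 3 counts use the total counts alone. Symbols came from the name tables, which matched 45682 of 46003 names. The steps were tested on simulated data.

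The members and gene lists were chosen with earlier results of these data known. The genes named were the members, other msrp genes, label checks, alg-3 and alg-4, the 5 genes per assay most correlated with the members' mean profile and the extremes of each list. F46F5.5, gtnt-29 and the genes ranked beside the members were added after their values were seen. Neighbours were taken from RefSeq's WBcel235 annotation, and no coordinates or sequences are given. Alternatives were DESeq2 1.42.0, its size factors, scaling by total count or by sperm-list counts, no filter, a replicate block and each library left out. Same-numbered libraries of mRNA deviated together with correlations of -0.222 to 0.348 and those of small RNA with -0.058 to 0.1, so numbers were not taken as pairs.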

Additional observations from a re-analysis of the deposited data

Results flagged for a closer look

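The mRNA difference between mut-16 strains and their counterparts was unequal between the double deletion, sosi-1 and eri-6[e-f] backgrounds for msrp-3. The largest and smallest of its 3 log2 fold changes were 2.19 apart, with an edgeR adjusted p of 0.0303, where 60.1% of all genes passed the same test. The eri-6[e-f] libraries behind it had 0, 6 and 0 counts.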

How the results depend on the processing

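The small number of libraries per strain, few counts in the deletion strains and unstated read sharing limit these values, and p-values cover the spread between libraries only. Of the members' tested values, 552 kept their direction and their side of the threshold when the tool, scaling, filter or block changed, 22 were no longer called, 8 became called and 2 changed sign. With 1 library left out, 801 kept both, 17 were no longer called, 9 became called and 13 changed sign. Of the mut-16 small RNA values, given without a test, 11 moved by more than the spread between replicates under other settings and 8 with 1 library left out, and 0 changed sign. The replicate block, in which numbers do not mark known pairs, kept direction and call for 124 of 124 values and moved none by more than 0.05 on the log2 scale. With sperm-list scaling the members called higher in mut-16 mRNA were 1 of 4 in eri-6[e-f], 1 in sosi-1, 2 in the double deletion and 2 in the mean of backgrounds, against 4 in each otherwise, and msrp-7 mRNA turned to -1.51. The same scaling of the Argonaute double mutants, chosen after seeing the data, left 2 mRNA calls for prg-1; ergo-1 and 2 for prg-1; hrde-1 against the deletion strains. It left 1 mRNA and 2 small RNA calls between these double mutants. DESeq2 called 1 member higher in the double deletion over eri-6[e-f] mRNA. Scaling by total count called 3 members lower in the double deletion over sosi-1 mRNA and 1 higher in sosi-1 mut-16 over eri-6[e-f] mut-16 mRNA, and no filter called 2 higher in the small RNA of that pair, against 0 otherwise. Scaling by total count also moved the share of higher among all mRNA calls. For the double deletion it was 22.2%, against 45.7% with TMM, over eri-6[e-f] and 12.5%, against 40.8%, over sosi-1. For the mut-16 double deletion it was 76.2%, against 51.1%, over eri-6[e-f] mut-16 and 29.8%, against 41.9%, over sosi-1 mut-16. For sosi-1 mut-16 over eri-6[e-f] mut-16 that share was 98.3%, against 88.1%, and for mut-16 small RNA in the double deletion 34.2%, against 24.1%. Leaving out single libraries gave 0 to 2 members differing between backgrounds in mRNA, 0 to 2 higher in the double deletion over eri-6[e-f] mRNA, 0 to 1 higher in sosi-1 mut-16 over eri-6[e-f] mut-16 in each assay and 1 lower in sosi-1 over eri-6[e-f] mRNA without sosi-1 replicate 2. Values that changed sign were not called to begin with. For msrp-3 they ranged from -0.15 to 0.19 in the mut-16 double deletion over eri-6[e-f] mut-16 mRNA, from -0.71 to 0.96 in the double deletion over eri-6[e-f] small RNA and from -0.12 to 0.08 in prg-1; ergo-1 over prg-1, where total counts gave 0.16. For msrp-4 they ranged from -0.67 to 0.97 in the double deletion over sosi-1 mRNA and from -0.14 to 0.27 in the mut-16 double deletion over sosi-1 mut-16 mRNA, where total counts gave -0.08. For msrp-6 they ranged from -0.41 to 0.05 in the mut-16 double deletion over eri-6[e-f] mut-16 mRNA. The cause of these changes was not tested.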
